A study of Homo sapiens with 4 samples.

Results

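The 10 genes described here mark or specify T cells: CD3D, CD3E, CD3G and CD247, CD4, CD8A and CD8B, and the transcription factors GATA3, TBX21 and BCL11B. They were taken by symbol from GENCODE release 44 on hg38, out of 19970 protein-coding genes of chromosomes 1 to 22 and X, and they lie in 7 loci, because CD3D, CD3E and CD3G are neighbours on chromosome 11 and CD8A and CD8B are neighbours on chromosome 2. The cells were of 1 human lymphoblastoid cell line, that is, B cells grown in culture after transformation with Epstein-Barr virus. The 10 genes were chosen for another lineage, and their expression in these cells was not measured. HiChIP was performed with an antibody against SMC1, a subunit of cohesin, after cross-linking with formaldehyde and EGS (FA-EGS HiChIP, 2 replicates), and with an antibody against CTCF after formaldehyde alone (FA-HiChIP, 2 replicates). The labels give no treatment for either. Antibody and cross-linking changed together, so differences between the SMC1 and CTCF lists cannot be told apart from the cross-linking. The study's supplement also gives more reads for SMC1 than for CTCF, so such differences cannot be told apart from sequencing depth either. The replicates of each target had been pooled before peaks and loops were called, so no spread between replicates could be computed, nothing was tested, and all intervals cover counting error only. The loop lists went against their labels, as given before the loop results, so they are called the lists labelled SMC1 and labelled CTCF and are credited to neither protein. A peak or a loop is not a measure of expression, so the values do not check the cell type.

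In T cells the CD3 chains and the CD247 chain (CD3 zeta) carry the signal of the T cell receptor into the cell. CD4 and CD8 are the coreceptors that divide T cells into helper and cytotoxic lineages, and GATA3, TBX21 (T-bet) and BCL11B are transcription factors of T cell commitment and of helper cell fate. Cohesin extrudes chromatin loops and is held at bound CTCF, most often where the CTCF motifs at the loop ends point towards each other.

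The sequences shown first were picked from the ends of the loops with the most read pairs at these genes, where a CTCF peak held the CTCF motif; ends within annotated exons (of POU2F1, CD3G, GATA3-AS1 and TBX21) are not shown, and the ends in the CD8A and TBX21 promoters follow further on. The motif was a 19 bp matrix learned from the CTCF summits themselves, searched on both strands, with hits of at least 8 bits counted. In capitals is the motif, with 15 bases on either side, read from hg38 on the strand of the motif. Introns are given as annotated by GENCODE.
CD247 intron, chr1:167442311-167442359, minus strand: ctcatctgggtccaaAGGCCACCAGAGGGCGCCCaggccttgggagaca
JAML intron, partner of CD3D, CD3E and CD3G, chr11:118198443-118198491, plus strand: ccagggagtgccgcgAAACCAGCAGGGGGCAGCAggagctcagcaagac
Upstream of CD3E, between genes, chr11:118296004-118296052, plus strand: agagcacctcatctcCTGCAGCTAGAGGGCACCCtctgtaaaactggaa
MLF2 intron, partner of CD4, chr12:6753751-6753799, plus strand: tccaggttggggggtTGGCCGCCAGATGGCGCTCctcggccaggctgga
RMND5A intron, partner of CD8A, chr2:86764899-86764947, plus strand: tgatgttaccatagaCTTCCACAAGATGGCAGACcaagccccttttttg
TBKBP1 intron, partner of TBX21, chr17:47698982-47699030, plus strand: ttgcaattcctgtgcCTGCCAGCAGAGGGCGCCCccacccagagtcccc
The CD247, MLF2 and TBKBP1 hits scored 22.8, 21.2 and 22.5 bits, against 19.2 bits in JAML, 14.9 bits in RMND5A and 11.1 bits upstream of CD3E.

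Around the 10 genes, 58 SMC1 peaks and 45 CTCF peaks had their summit in a gene body or within 50 kb of a gene start. At least 1 SMC1 peak lay in the windows of 9 of the 10 genes, as for 92.5% of all protein-coding genes, and at least 1 CTCF peak in those of the same 9, as for 92.0%. The exception for both targets was CD8B. The median gene of the 10 had 6 SMC1 and 4 CTCF peaks, against 7 and 5 over all protein-coding genes and 13.5 and 10 over 18 B cell genes. Peak heights were close to those of all peaks. The median fold enrichment over local background was 3.36 for SMC1 and 4.99 for CTCF at the 10 genes, and 3.32 and 5.01 over all peaks. Many of these peaks belong to neighbours: a T cell lineage gene had the nearest coding start for 36 of the 58 SMC1 peaks and 25 of the 45 CTCF peaks.

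**Figure D1:**
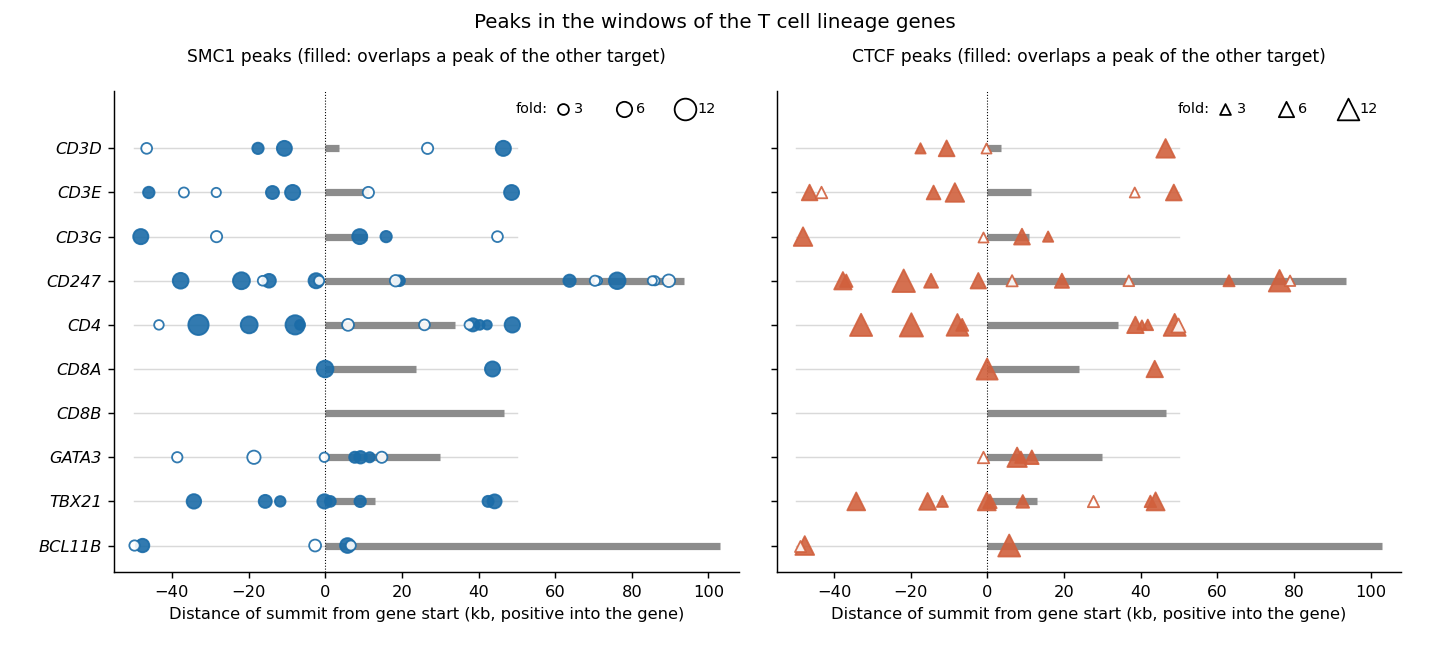
Each symbol is a peak, placed by the distance of its summit from the gene start in kb (x axis) in the row of its gene, with symbol area growing with fold enrichment; grey bars are gene bodies and thin lines the 50 kb on either side of the start. CD8B has no symbol in either panel, CD8A has a large symbol at its start in both, and CD247 and CD4 hold the most peaks, with 15 and 12 for SMC1.

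SMC1 and CTCF peaks often lay together. Of the 58 SMC1 peaks, 35 overlapped a CTCF peak by at least 1 bp (60.3%, 95% Wilson interval 47.5 to 71.9), and of the 45 CTCF peaks 36 overlapped an SMC1 peak (80.0%, 66.2 to 89.1). Over all peaks of the lists the shares were 47.1% and 75.9%. Where summits had to lie within 200 bp of each other, the share of the 58 SMC1 peaks was 48.3%. Shared SMC1 peaks were higher, with a median fold enrichment of 4.67 against 2.69 for those without CTCF, and shared CTCF peaks had 6.68 against 3.20; over all peaks these medians were 4.65 and 2.76 for SMC1 and 6.26 and 3.30 for CTCF.

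The genes differed in whether a peak sat at a transcript start, taken as a summit within 1 kb of any annotated start. An SMC1 peak did so at 5 of the 10 genes (CD247, CD4, CD8A, GATA3 and TBX21), where 62.6% of all protein-coding genes had one. A CTCF peak did so at 5 (CD3D, CD247, CD8A, GATA3 and TBX21), where the share over all genes was 46.7%. Among the 18 B cell genes 18 had an SMC1 peak and 13 a CTCF peak at a start, and among 26 other T cell genes 14 and 12 did. A gene with more annotated starts has more places to be counted. The median number of starts was 4.5 for the 10 genes, 8 for the B cell genes and 7 for the other T cell genes. Over all protein-coding genes it was 5. The part of this in the shares was not tested.

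Of the receptor chains, none had an SMC1 peak at the 5' end of the gene. At CD3D, which encodes the delta chain (chr11:118339075-118342705, minus strand), the CTCF peak was 453 bp upstream and low, with a fold enrichment of 2.56 and a −log10 q of 2.92. CD3E (chr11:118304730-118316175, plus strand) and CD3G (chr11:118344344-118355161, plus strand), which encode the epsilon and gamma chains, had no peak at any start. The 3 genes shared a window of 139.6 kb with 9 SMC1 and 7 CTCF peaks, so they are not independent of each other. The highest peak in it lay between genes, 8.50 kb upstream of CD3E, with a fold enrichment of 5.93 for SMC1 and 8.86 for CTCF. The next highest lay in an exon of CD3G, 9.01 kb from its start, with 5.82 for SMC1 and 6.42 for CTCF; its nearest coding start was that of UBE4A, a ubiquitin ligase gene.

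CD247 (chr1:167425027-167518640, minus strand) had the highest peak counts of the 10, with 15 SMC1 and 11 CTCF peaks. The windows take in the gene body, so they differed in length, and the counts were not scaled to it. CD4 had 12 and 9 peaks in a shorter window than that of CD247, and BCL11B 5 and 3 in a longer one. The CD247 peaks at starts were all at internal starts: SMC1 had a fold enrichment of 3.90 at 63.8 kb into the gene, and CTCF had 3.15 at 63.0 kb and 2.81 at 78.9 kb. The peaks with the highest −log10 q were elsewhere. For SMC1 it was the intronic peak 76.2 kb into the gene, with a fold enrichment of 7.10 and a −log10 q of 301, where CTCF reached 11.9. For CTCF it was a peak 21.9 kb upstream of the gene, with a fold enrichment of 13.02, and SMC1 there had 7.38. That upstream peak was nearest to the start of CREG1, a neighbouring gene.

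At the coreceptor genes the peaks were placed very differently. CD4 (chr12:6786858-6820799, plus strand) had 12 SMC1 and 9 CTCF peaks but none within 1 kb of its gene start; the SMC1 peak counted above, with a fold enrichment of 2.99, was at an internal start 25.9 kb into the gene. Its high peaks flanked it. Upstream, SMC1 reached 10.5 and CTCF 12.6 near MLF2, 33.1 kb and 33.0 kb from the CD4 start, 7.34 and 13.9 at 19.8 kb, and 9.53 and 12.1 at 7.84 kb and 7.83 kb, nearest to the start of LAG3. LAG3 encodes a CD4-like inhibitory receptor. CD8A (chr2:86784610-86808396, minus strand), which encodes the alpha chain, had only 2 peaks per target, and the higher sat on its gene start. SMC1 had a fold enrichment of 7.17 at 28 bp upstream and CTCF 11.4 at 87 bp upstream. The RefSeq promoters of CD8A further into the gene, chr2:86790864-86791163 and chr2:86791631-86791930, had 0 SMC1 and 0 CTCF peaks over them.

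CD8B (chr2:86815339-86861924, minus strand), which encodes the beta chain, had 0 SMC1 peaks and 0 CTCF peaks in its window. Of 4001 sampled 100-base sequences from that window, 912 (22.8%) occurred again in chromosomes 1 to 22, X or Y. For CD8A the share was 5.35%, and for the other 8 genes it was between 0.0750% and 0.9998%. Reads from repeated sequence can be lost to a mapping quality filter; the part of this in the missing peaks was not tested.

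Among the transcription factors, TBX21 (chr17:47733236-47746122, plus strand) had peaks of both targets at its gene start. SMC1 had a fold enrichment of 5.25 at 196 bp upstream, CTCF had 8.24 at 181 bp upstream, and a second CTCF peak of 4.63 lay 647 bp into the gene. All 8 SMC1 peaks of the TBX21 window overlapped a CTCF peak. GATA3 (chr10:8045378-8075198, plus strand) had only a low SMC1 peak within 1 kb of its gene start, with a fold enrichment of 2.30 at 221 bp upstream. A CTCF peak of 3.37 lay 1.04 kb upstream of the gene start, just beyond that limit. The high CTCF peak of GATA3, 9.67, lay at an internal start 7.74 kb into the gene, and SMC1 had 3.21 there. A further SMC1 peak of 4.02 and a CTCF peak of 3.36 lay at internal starts 9.22 kb and 8.71 kb in. BCL11B (chr14:99169287-99272197, minus strand) had 5 SMC1 and 3 CTCF peaks and none at a start. Its highest were intronic, with a CTCF fold enrichment of 12.4 at 5.68 kb and an SMC1 fold enrichment of 5.64 at 5.81 kb into the gene.

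CD8A, TBX21 and GATA3 had a peak over the promoter of the gene start itself, and their 250 bases upstream of the start are shown with the CTCF motif in capitals, 5′ to 3′ on the strand of the gene (RefSeq, GRCh38.p14).
CD8A, chr2:86808397-86808646, minus strand: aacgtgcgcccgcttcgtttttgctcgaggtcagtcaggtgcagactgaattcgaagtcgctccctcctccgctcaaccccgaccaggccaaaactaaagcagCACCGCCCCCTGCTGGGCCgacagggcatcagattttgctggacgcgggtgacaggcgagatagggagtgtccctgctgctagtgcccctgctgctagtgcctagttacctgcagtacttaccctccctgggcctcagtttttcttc
TBX21, chr17:47732986-47733235, plus strand: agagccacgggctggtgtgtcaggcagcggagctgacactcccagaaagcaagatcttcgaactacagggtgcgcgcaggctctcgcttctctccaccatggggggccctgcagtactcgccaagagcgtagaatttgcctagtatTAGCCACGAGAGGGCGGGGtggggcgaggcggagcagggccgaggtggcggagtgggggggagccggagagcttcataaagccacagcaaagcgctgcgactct
GATA3, chr10:8045083-8045332, plus strand: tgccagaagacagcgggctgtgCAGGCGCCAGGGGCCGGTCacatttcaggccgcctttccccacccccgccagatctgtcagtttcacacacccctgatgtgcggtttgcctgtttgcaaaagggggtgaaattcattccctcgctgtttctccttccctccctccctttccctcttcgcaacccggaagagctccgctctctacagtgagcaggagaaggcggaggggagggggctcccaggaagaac
The hits scored 20.1 bits in CD8A, 18.2 bits in TBX21 and 13.04 bits in GATA3, where no CTCF peak overlapped the promoter. RefSeq entries were matched for 6 of the 10 symbols, with 14 promoters in all. The GATA3 promoters at internal starts are not shown. An SMC1 peak overlapped those at chr10:8054438-8054737, with a hit of 12.6 bits, and chr10:8060207-8060506. A CTCF peak overlapped that at chr10:8053391-8053690. No peak overlapped those at chr10:8049604-8049903 and chr10:8050986-8051285. Of 34961 promoters of 300 bases, 36.5% held a hit of at least 8 bits. A hit at least as high as that of CD8A was in 0.495% of them, of TBX21 in 1.16% and of GATA3 in 7.40%. A hit is a description and not a bound site.

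Within 50 bp of the summit, 9 of the 45 CTCF peaks of the windows held the motif, where 19.3% of all 62869 CTCF peaks and 4.96% of windows 1000 bp away did. The minimum of 8 bits had been set so that at most 5% of those windows 1000 bp away reached it. Their share was therefore fixed in advance and is not a measured background. Summits often missed the hit: the CD247 intron hit lay 96 bp from its summit and the MLF2 hit 115 bp. Searched over the whole peak, an alternative chosen after seeing the data, 28 of 45 held it (62.2%), against 60.6% of all CTCF peaks and 20.7% of windows of the same widths 5000 bp away.

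The caller keeps a loop only where an anchor holds a peak of the same experiment. All 80487 loops labelled CTCF had an SMC1 peak at 1 or both anchors, but 3745 of them had no CTCF peak. All 28012 loops labelled SMC1 had a CTCF peak, but 11 had no SMC1 peak. Each whole list therefore met that rule with the peaks of the other target and not with those of its label, and the loop totals in the study's supplement are also given for the opposite targets. Within 50 bp of the summit, 19.3% of CTCF and 12.0% of SMC1 peaks held the motif. The matrix was learned from the CTCF peak list itself, so these shares cannot check the labels of the peak lists. With the lists exchanged, every loop count, read pair count and ratio that follows passes to the other target.

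Loops were counted at a gene where a 5 kb anchor lay within 5 kb of a transcript start. In the list labelled SMC1, 15 loops reached 6 of the 10 genes (CD3D, CD3E, CD3G, CD247, CD4 and TBX21), where 35.1% of all protein-coding genes had a loop. In the list labelled CTCF, 47 loops reached 8 (those 6, CD8A and GATA3), where 59.0% did. CD8B and BCL11B had none in either list. The 6 genes of the first count came from 4 loci. With a start required inside the anchor, 2 of the 10 genes had a loop labelled SMC1 and 7 had one labelled CTCF. The shares over all protein-coding genes were not computed under that rule. The lists differed in size and in the read pairs within loops, 788356 labelled SMC1 and 2666327 labelled CTCF. Of the 15 loops, 12 were also in the list labelled CTCF, which is 80% of the 15 and 25.5% of the 47; over the whole lists the 19336 shared loops were 69.0% and 24.0%. The ratio of observed to expected read pairs had a median of 3.31 for the loops labelled SMC1 and 3.12 for those labelled CTCF, against 4.004 and 4.03 over the whole lists.

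**Figure D2:**
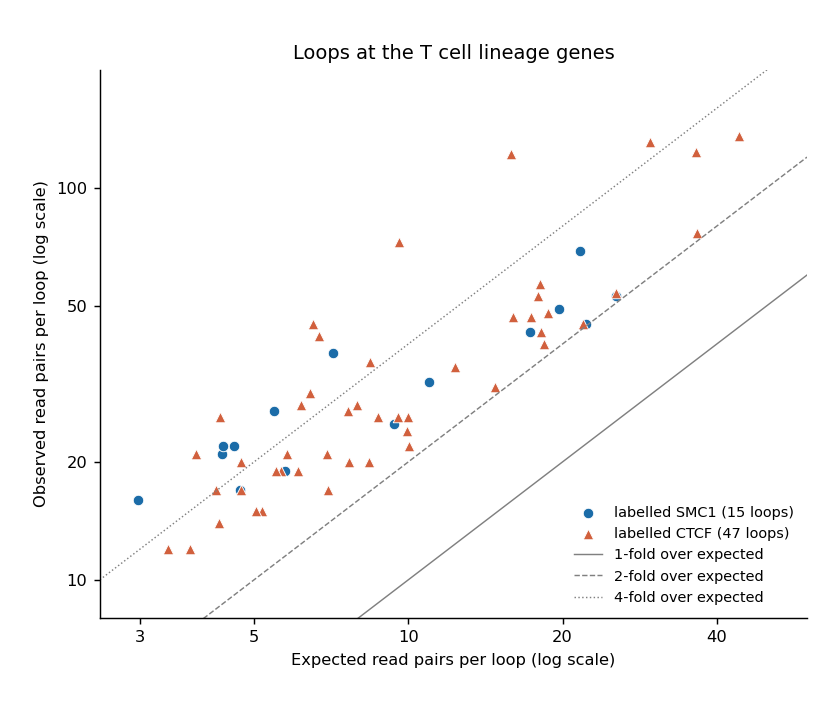
Each symbol is a loop at a T cell lineage gene, with expected read pairs on the x axis and observed read pairs on the y axis (both log scales), blue circles for the list labelled SMC1 and orange triangles for the list labelled CTCF. The 15 and 47 loops all lie above 2-fold over expected. The lists hold only loops that the caller kept as significant, so lying above expected was fixed in advance. The highest, with 136 observed pairs, is a loop labelled CTCF.

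CD247 took the most loops, 7 labelled SMC1 and 21 labelled CTCF. It has 27 annotated starts, against a median of 4.5 over the 10 genes, and the part of this in the counts was not tested. The CD247 loops were anchored inside the gene, mostly around the intronic peak at 76.2 kb, and none at its gene start. From the bin that holds this peak, 136 read pairs labelled CTCF led to a bin 116.1 kb from the gene start, beyond the end of the gene (expected 44.1, ratio 3.08, exact Poisson 95% interval 2.59 to 3.65 with the expected value taken as fixed), and 45 labelled SMC1 joined the same bins. To a bin at 251.1 kb there were 122 read pairs labelled CTCF (expected 15.9, ratio 7.69, 6.38 to 9.18) and 38 labelled SMC1. To one at 451.1 kb there were 73 and 27. At CD247, 7 of 7 labelled SMC1 and 19 of 21 labelled CTCF had no coding start within 5 kb of the partner anchor. The other 2 led to CREG1. The bins were not free of genes, as the motif hit in the bin at 116.1 kb lay in an exon of POU2F1. The nearest coding start was that of POU2F1 for the bins at 116.1 kb and 251.1 kb (12.8 kb and 15.6 kb away). For the bin at 451.1 kb it was that of GPA33 (11.2 kb away). In all 3 of the loops described, the best hits at the anchors were convergent, that is, the motifs pointed towards each other, with the CD247 intron sequence shown above at the right end.

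**Figure D3:**
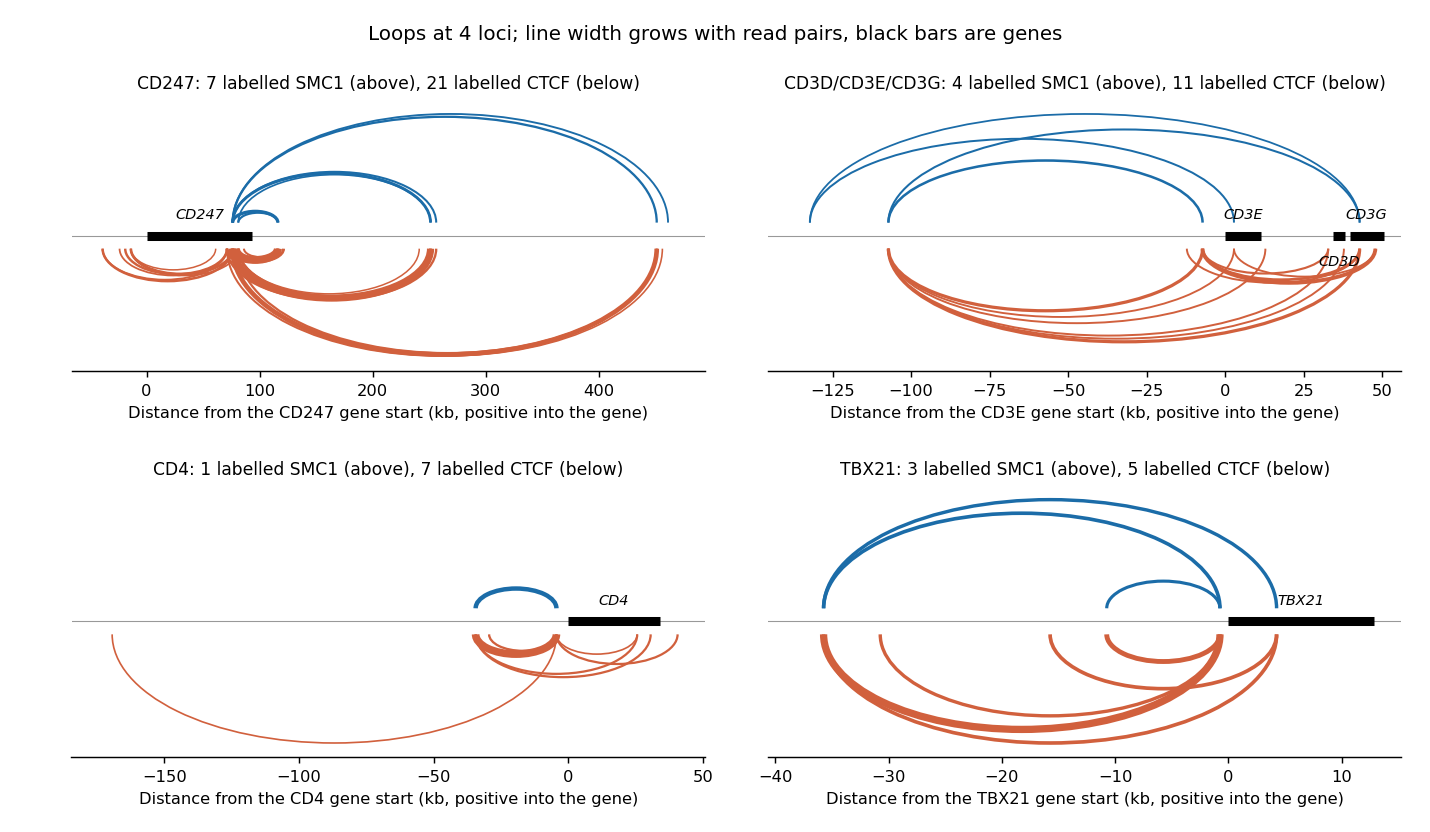
Arcs join the anchors of each loop at 4 loci, with distance from the gene start in kb on the x axis, loops labelled SMC1 above the line and labelled CTCF below, and line width growing with read pairs. At CD247 the arcs meet inside the gene and mostly run past its end; at TBX21 all run upstream from the start.

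At the CD3 genes there were 4 loops labelled SMC1 and 11 labelled CTCF, and CD3D and CD3G shared 2 and 6 of them. The bin that held the JAML intron sequence, 145.2 kb from the CD3D start, was joined to a bin inside CD3G, 2.30 kb from the CD3D start, by 45 read pairs labelled CTCF (expected 6.53, ratio 6.90, 5.03 to 9.23) and 22 labelled SMC1. The most read pairs at CD3E, 57 labelled CTCF, joined the bin of its upstream peak with a bin at the 3' end of CD3G, within 5 kb of a UBE4A start and 47.8 kb from the CD3E start (expected 18.1, ratio 3.15, 2.39 to 4.08). From that same upstream bin 36 read pairs led to the bin inside CD3G. In the list labelled SMC1, 2 loops led to SCN2B, a sodium channel subunit gene, with 17 and 21 read pairs.

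At CD4, the loop with the most read pairs in both lists joined a bin 1.86 kb short of the CD4 start with the MLF2 bin, with 131 labelled CTCF (expected 29.7, ratio 4.42, 3.69 to 5.24) and 69 labelled SMC1 (expected 21.6, ratio 3.19, 2.48 to 4.04). That CD4-side bin also lay within 5 kb of LAG3, so the loop cannot be given to CD4 alone. Further CD4 loops labelled CTCF led to CHD4 (15 read pairs) and to GPR162 and P3H3 (26). CD8A had 1 loop, labelled CTCF, with its gene start inside the anchor, to the bin of RMND5A (43 read pairs, expected 18.2, ratio 2.37, 1.71 to 3.19). The best hits at its ends both lay on the plus strand.

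TBX21 had 3 loops labelled SMC1 and 5 labelled CTCF, and all 3 were in both lists. The loop with the most read pairs joined the bin of its start with that of TBKBP1, 35.7 kb upstream, with 124 labelled CTCF (expected 36.5, ratio 3.40, 2.83 to 4.05) and 53 labelled SMC1 (expected 25.4, ratio 2.08, 1.56 to 2.72). Its best hits, those of the TBKBP1 intron and of the TBX21 promoter shown above, were both on the plus strand. GATA3 had 2 loops, labelled CTCF only, from internal starts to a bin beyond the gene, with 21 and 17 read pairs, and no coding start lay within 5 kb of that bin.

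By the best hit in each anchor, 20 of the 47 loops labelled CTCF were convergent, 25 tandem, 1 divergent, and 1 lacked a hit at an anchor. Of the 15 labelled SMC1, 7 were convergent, 6 tandem and 2 divergent. The convergent shares, 42.6% and 46.7%, stood beside 41.4% and 44.3% over the whole lists. Of all 28012 loops labelled SMC1, only 2878 lacked a hit at an anchor, and many of the loops of the 10 genes share an anchor.

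Set beside other lists, the T cell lineage genes had fewer loops labelled SMC1 than the B cell genes in the median, 1.5 against 3, and 0 over all protein-coding genes and over the 26 other T cell genes. For loops labelled CTCF the medians were 5.5, 9.5, 1 and 5.5. The B cell genes had more annotated starts, with a median of 8 against 4.5; the part of this in the counts was not tested. The B cell genes with the most loops were IKZF3 with 27 labelled SMC1 and 35 labelled CTCF, CIITA with 14 and 51, and POU2AF1 and BLK with 21 and 26 and with 19 and 28. The highest SMC1 fold enrichments at a B cell gene start were 5.95 at POU2AF1, 5.74 at BLK and 5.74 at CD79B. Of the 7 other T cell surface genes, 0 had a loop labelled SMC1 and 3 had one labelled CTCF, CD6 with 8, CD7 with 6 and ICOS with 1; an SMC1 peak lay at a start of CD28 (5.56) and CD6 (3.06). Among the 11 genes of T cell receptor signalling, 6 and 7 had a loop, the most at PLCG1 with 13 and 35, FYN with 9 and 28 and LCP2 with 4 and 20, and the highest SMC1 fold enrichments at a start were 8.07 at PLCG1, 7.50 at PRKCQ and 5.11 at LCP2. Of 8 further T lineage transcription factors, 3 and 7 had a loop, the most at RUNX3 with 26 and 28, TCF7 with 6 and 22 and ZBTB7B with 9 and 6, and EOMES, TCF7 and TOX had the highest SMC1 fold enrichments at a start, 5.60, 4.95 and 4.66. PLCG1, FYN and RUNX3 are also known to act outside T cells.

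**Figure D4:**
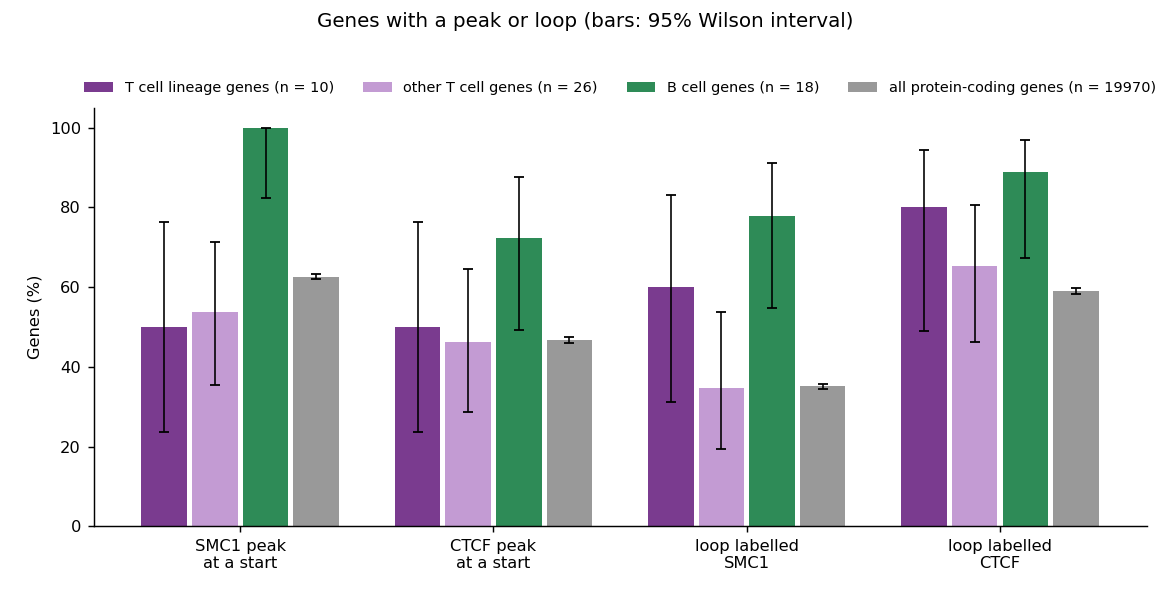
Bars give the percent of genes (y axis) with a peak at a start or with a loop, for the 10 T cell lineage genes, 26 other T cell genes, 18 B cell genes and 19970 protein-coding genes; error bars are 95% Wilson intervals over genes, some of which share a locus. The 18 B cell genes all had an SMC1 peak at a start, against 5 of the 10 T cell lineage genes. The B cell genes also had more annotated starts, a median of 8 against 4.5.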

How the data were processed

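SMC1 FA-EGS HiChIP and CTCF FA-HiChIP were performed on 4 samples, 2 replicates per target. Reads had been mapped to hg38 by the authors (BWA-MEM), who removed low mapping quality and duplicate reads, pooled the replicates, called peaks with MACS3 3.0.1 without input, and called loops with MAPS in 5 kb bins. The deposited peak lists hold fold enrichment, a ratio over local background, and −log10 q-values. The deposited loop lists hold a count of read pairs per loop and the expected read pairs of the authors' model, which are other values. Depth per sample was not analysed here.

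Columns were used as deposited. Ratios of observed to expected pairs, Wilson intervals for shares and exact Poisson intervals for read pairs (95%, counting error only) were computed with Python 3.11.15, pandas 2.3.3 and scipy 1.17.1; sequence was read with pysam 0.24.0. The Poisson intervals take no account of how loops were picked, first by the caller and then for their read pairs. Starts came from GENCODE release 44. The motif matrix was grown from a seed over the 3000 CTCF summits of highest −log10 q on odd-numbered autosomes. The counting of peaks and loops and the motif search were tested on simulated data. No test between groups was possible. Loop lists are named by their labels. Because the peaks at their anchors and the study's own loop totals go with the opposite targets, exchanging them was an alternative, chosen after seeing the data. The named genes are the 10 genes; per gene and target the peak of highest −log10 q and the peaks at a start; per gene and list the loop with the most read pairs and its partners; and, of each gene list, the 3 genes with the most loops (ties included) and the 3 with the highest SMC1 fold enrichment at a start. Repeated sequence was measured with 100-base sequences taken every 25 bases. The members and gene lists were chosen with earlier results of these data known.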

Additional observations from a re-analysis of the deposited data

How the results depend on the processing

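Over 42 alternatives of 11 results, 26 values stayed within 1.5 times of the reported count (shares within their interval) and 16 did not. A window of 100 kb gave 100 SMC1 and 73 CTCF peaks, and 25 kb gave 28 CTCF peaks. With a start required inside the anchor, 9 loops labelled SMC1 and 23 labelled CTCF were left. Then 2 genes (CD247 and TBX21) had a loop labelled SMC1 in place of 6. The share of all protein-coding genes under that rule was not computed. With anchors within 10 kb there were 23 loops labelled SMC1. Loops labelled CTCF with at least the median read pairs of the list numbered 29. Exchanging the lists, chosen after seeing the data, exchanged the counts of 15 and 47. CTCF peaks with the motif numbered 5 with a minimum 3 bits higher, 15 within 100 bp of the summit and 28 over the whole peak. Convergent loops labelled CTCF numbered 10 of the 24 with hits at both anchors with the higher minimum (41.7%) and 7 of 13 with hits inside CTCF peaks alone (53.8%), the latter chosen after seeing the data, against 20 of 46 (43.5%) as reported; the list labelled SMC1 gave 7. Apart from the exchange and the use of the list labelled SMC1, each of these alternatives widened or narrowed what was counted. No paired analysis was possible because the lists pool both replicates. Depth per sample was not analysed here, so a missing peak or loop was not detected in these lists and is not shown to be absent.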
